A study of Mus musculus with 8 samples.

Results

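The miR-148 and miR-152 family of the mouse was followed across 8 small RNA libraries from C2C12 and P19 cells. It was described through 5 mature miRNAs: mmu-miR-148a-3p, mmu-miR-148a-5p, mmu-miR-148b-3p, mmu-miR-148b-5p and mmu-miR-152-3p, written without the species prefix from here on. These 5 were taken by name from the 1978 mature miRNAs of the count tables, the 605 of the ATF4 table and the 696 of the P19 table, and each was listed in every table. The family was chosen by a readout of these same libraries, the rise of miR-148a in differentiation and with ATF4. The values of miR-148a in those comparisons are therefore given as a description and support nothing. miR-152-5p, the other arm of the miR-152 precursor, is no member and is given for reference.

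The cells were C2C12, a line of mouse skeletal myoblasts, and P19, a line of mouse embryonal carcinoma cells. C2C12 cells carried a control short hairpin RNA (shNC) or one against Perk (shPerk), and were sampled at day 0 and at day 3 of differentiation. A further pair of C2C12 libraries came from vector control cells and from cells that overexpressed ATF4, both kept in growth medium per the study's methods, and the last pair from P19 cells with shNC or shPerk. The C2C12 lines were made by lentiviral infection and selected with puromycin, how the P19 lines were made is not given in the sources used here, and the ATF4 coding sequence stood under the EF1α promoter. For P19 cells the labels name no day and no induction. Each condition was 1 library, so the spread between replicates is unknown and no p-value is given. Perk and Atf4 mRNA were not measured by these libraries, so neither the knockdown nor the overexpression was checked here. The study itself reports western blots for PERK knockdown in C2C12 and P19 cells and for ATF4 overexpression.

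A miRNA precursor folds into a hairpin from which a 5p and a 3p arm are cut, and usually one arm is retained as the guide while the other is largely degraded. The guide pairs with messenger RNAs mainly through its seed, and miRNAs with the same seed are expected to share many targets. This family is known for acting on the DNA methyltransferase Dnmt1, and miR-148a has been described as a promoter of myogenic differentiation that acts on the kinase ROCK1. PERK, a kinase of the endoplasmic reticulum, phosphorylates eIF2α under stress, which lowers general translation and favours that of the transcription factor ATF4.

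The sequences of the 6 arms are shown because the family is defined by them. They are from RefSeq on the GRCm38.p6 build, written 5′ to 3′, with the seed (bases 2 to 8) in capitals.
miR-148a-3p: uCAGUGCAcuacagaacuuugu
miR-148b-3p: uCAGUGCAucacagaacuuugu
miR-152-3p: uCAGUGCAugacagaacuugg
miR-148a-5p: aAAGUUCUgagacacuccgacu
miR-148b-5p: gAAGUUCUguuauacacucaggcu
miR-152-5p: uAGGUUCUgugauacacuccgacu
All 3 of the 3p arms had the seed CAGUGCA, and no other of the 1679 mature mouse miRNAs in the RefSeq table had it. The 5p arms of miR-148a and miR-148b shared the seed AAGUUCU with each other only, and miR-152-5p had a seed of its own. Counted from the 5′ end and without gaps, miR-148b-3p differed from miR-148a-3p by C9U and U10C. miR-152-3p differed from miR-148a-3p by C9U, U10G and U20G, and from miR-148b-3p by C10G and U20G. The 3p arms thus differed at 2 or 3 positions, all outside the seed. How the authors assigned reads that match several miRNAs is not given in the sources used here.

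The precursors lie on 3 chromosomes, and they are printed to show where the arms sit, with both mature arms in capitals.
Mir148a precursor: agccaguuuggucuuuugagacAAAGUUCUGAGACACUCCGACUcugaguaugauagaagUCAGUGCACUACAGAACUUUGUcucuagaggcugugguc
Mir148b precursor: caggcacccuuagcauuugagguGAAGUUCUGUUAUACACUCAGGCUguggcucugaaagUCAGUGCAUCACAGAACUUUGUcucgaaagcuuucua
Mir152 precursor: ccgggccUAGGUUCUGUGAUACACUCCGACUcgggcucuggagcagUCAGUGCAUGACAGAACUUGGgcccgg
Mir148a is at chr6:51269812-51269910 on the minus strand, in no annotated gene, and the nearest gene is the long non-coding RNA Gm32479 on the same strand, 13621 bases away. Mir148b is at chr15:103285125-103285221 on the plus strand, in an intron of Copz1. Mir152 is at chr11:96850393-96850465 on the plus strand, in an intron of Copz2. Copz1 and Copz2 encode the ζ subunits of the COPI vesicle coat, and both precursors lie on the strand of their host gene.

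The 4 C2C12 short hairpin libraries held between 8800977 and 11993448 miRNA reads, and the ATF4 and P19 tables were deposited as RPM (reads-per-million of the miRNA reads), scaled to the same total in each library. RPM of the count libraries were computed from their reads. The step between low RPM values corresponded to between 7.91 and 12.2 reads per RPM in these 4 libraries. Muscle miRNAs (miR-1a, miR-133a, miR-133b and miR-206) summed to between 2467 and 88480 RPM in C2C12 libraries and to 34.5 and 96.9 in P19 libraries, where miR-206-3p was not listed. Of 10 miRNAs of pluripotent cells, all were above 0 in both P19 libraries, with sums of 213276 and 445476 RPM, and their sum in C2C12 libraries was at most 0.707. The labelled cell lines thus matched their miRNA markers.

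miR-148a-3p, the guide arm, varied more between libraries than the other 3p arms. Its level was 577 RPM (6538 reads) in shNC C2C12 cells at day 0 and 5127 RPM (45125 reads) with shPerk, and at day 3 it was 1778 RPM (21323 reads) with shNC and 15897 RPM (149882 reads) with shPerk. It was 580 RPM with the vector and 4132 RPM with ATF4, and in P19 cells 19730 RPM with shNC and 51302 RPM with shPerk. The lowest and the highest of the 8 levels were 88.8-fold apart, and the lowest belongs to a contrast by which the family was chosen. Within every pair the shPerk, ATF4 or day 3 library was the higher one, and both P19 libraries were above all C2C12 libraries. Levels were set side by side across separately normalised tables, and with TMM factors (edgeR's trimmed mean of M-values) over all 8 libraries shPerk C2C12 cells at day 3 stood above shNC P19 cells, and the range was 94.9-fold. miR-148a-3p was the 4th most abundant miRNA in P19 shPerk cells, and it was the 100th in shNC C2C12 cells at day 0.

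miR-148a-5p followed at a much lower level. At day 0 its reads numbered 37 in shNC cells (3.27 RPM) and 394 in shPerk cells (44.8 RPM), and at day 3 they numbered 222 (18.5 RPM) and 306 (32.5 RPM), respectively. Its RPM was 11 with the vector, 62.3 with ATF4, 472 in shNC and 696 in shPerk P19 cells. Its range, 213-fold or 174-fold with TMM factors over the 8 libraries, was the widest of the 5 members. Its lowest level, in shNC cells at day 0, also belongs to a contrast by which the family was chosen. The P19 libraries were again the highest, but of the C2C12 libraries ATF4 cells and shPerk cells at day 0 stood above shPerk cells at day 3.

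miR-148b and miR-152 kept to a narrower range. miR-148b-3p had 1471, 800, 1060 and 854 RPM in shNC and shPerk cells at day 0 and then at day 3, 2877 and 2142 RPM with vector and ATF4, and 3546 and 2752 RPM in shNC and shPerk P19 cells. Its highest and lowest levels were 4.43-fold apart, or 2.78-fold with TMM factors over the 8 libraries. In every pair of shNC and shPerk libraries the shPerk level in RPM was the lower one, but with TMM factors over the 8 libraries the shPerk level was the higher one in P19 cells. miR-148b-5p lay between 22.3 and 71.1 RPM, and both P19 libraries were above the C2C12 libraries on this scale.

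miR-152-3p had 980, 1644, 2477 and 2198 RPM in shNC and shPerk cells at day 0 and then at day 3, 794 and 1188 RPM with vector and ATF4, and 1322 and 780 RPM in shNC and shPerk P19 cells. Its highest level was thus in shNC C2C12 cells at day 3 and its lowest in shPerk P19 cells, 3.18-fold apart, and unlike miR-148a-3p it was not highest in P19 cells. With TMM factors over the 8 libraries, the order changed, with shPerk cells at day 3 the highest, vector cells the lowest and a 4.9-fold range.

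**Figure D1:**
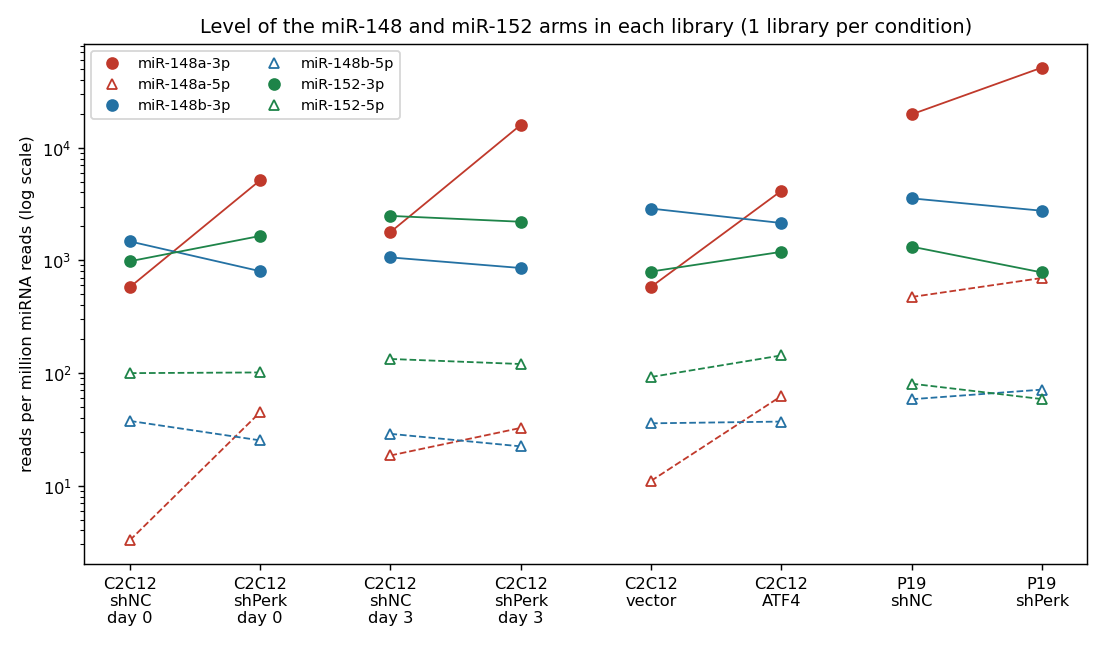
Level of each arm in RPM (vertical log axis) in the 8 libraries, 1 per condition, with lines joining the libraries of a pair, filled circles for 3p and open triangles for 5p arms. miR-148a-3p climbs from 577 in shNC C2C12 cells at day 0 to 51302 in shPerk P19 cells, while miR-148b-3p stays between 800 and 3546 and miR-152-3p between 780 and 2477.

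Fold changes were computed between the libraries of a pair after TMM scaling, over all miRNAs with at least 1 RPM in 1 of the libraries, and a miRNA was called higher or lower past a log2 fold change of 1. The intervals given are 95% Clopper-Pearson intervals from reads. Counting error is all that they cover, as reads copied by PCR were not traced to single molecules, and they could not be given for RPM. All 5 members passed the filter in all 6 comparisons, and none was called lower in any of them.

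The comparison of day 3 with day 0 in shNC cells asks which miRNAs change in differentiation. Both miR-148a arms and miR-152-3p were higher at day 3, and both miR-148b arms stayed within the limit. Among all miRNAs tested, 12.5% were called higher and 16.5% lower, and nothing is read from the 3 members called, since the rule used this contrast. The log2 fold change of miR-148a-3p, 1.89 (95% interval 1.85 to 1.93), was the 26th largest of 593. That of miR-148a-5p was 2.76 (95% interval 2.26 to 3.31), from 37 to 222 reads. miR-152-3p was 3.04-fold higher, with 11100 reads at day 0 and 29713 at day 3, or 1.60 on the log2 scale (95% interval 1.57 to 1.63). The log2 fold change of its other arm, miR-152-5p, was 0.69 (95% interval 0.58 to 0.80), within the limit. miR-148b-3p had a log2 fold change of -0.21 and miR-148b-5p one of -0.12.

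The same step in shPerk cells gave 1 member called, against 16.9% of all miRNAs called higher and 16.9% lower. miR-148a-3p had 45125 reads at day 0 and 149882 at day 3, and its log2 fold change was 1.99 (95% interval 1.98 to 2.01). It thus rose 3.97-fold from a starting level that was already above that of shNC cells at day 3. miR-148a-5p did not go with it, with 394 and 306 reads and -0.11 on the log2 scale (95% interval -0.33 to 0.11). miR-152-3p had 0.78, below the limit, and miR-148b-3p and miR-148b-5p had 0.45 and 0.18.

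In cells with the ATF4 vector, both arms of miR-148a were higher than with the empty vector. This contrast was also used by the rule, and 14.5% of all miRNAs were called higher and 8.93% lower. The log2 fold change of miR-148a-3p was 2.90, from 580 to 4132 RPM, the 4th largest of 605. miR-148a-5p had 2.57, from 11 to 62.3 RPM, the 7th largest. miR-152-3p and miR-152-5p had 0.64 and 0.70, both within the limit, and miR-148b-3p and miR-148b-5p had -0.36 and 0.11.

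PERK knockdown was compared with the control at day 0 and day 3 in C2C12 cells and in P19 cells, and these 3 pairs have no library in common. The labels give the same hairpins at both days in C2C12 cells, and the study describes stable lines. The C2C12 pairs are therefore not separate replications of the knockdown. miR-148a-3p was called higher in all 3 knockdown pairs. At day 0 in C2C12 cells its log2 fold change was 3.28 (95% interval 3.25 to 3.32), a 9.74-fold difference. At day 3 it was 3.49 (95% interval 3.47 to 3.51), an 11.3-fold difference, and in P19 cells 1.98, a 3.95-fold difference. In the P19 pair the summed level of the 10 miRNAs of pluripotent cells also moved, from 213276 to 445476 RPM, and its part in the result was not tested. The shNC libraries at day 0 and day 3 also enter the differentiation contrast by which the family was chosen, so the C2C12 values are not independent of that choice, and the P19 pair shares no library with it.

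miR-148a-5p was higher in the same 3 pairs, with log2 fold changes of 3.90 at day 0 (95% interval 3.42 to 4.44), 1.14 at day 3 (95% interval 0.89 to 1.40) and 1.16 in P19 cells. The day 3 and P19 values lay close to the limit, and scaling to total reads put them at 0.81 and 0.56, within it. No other member was called in a knockdown pair. miR-152-3p had 0.88 at day 0, 0.16 at day 3 and -0.16 in P19 cells, and miR-148b-3p had -0.74, 0.02 and 0.24. miR-148b-5p had -0.44, -0.04 and 0.89. The sign of the small values depended on the scaling: with total reads, miR-152-3p at day 3 was -0.17, and miR-148b-3p was -0.31 at day 3 and -0.37 in P19 cells.

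The 2 members of 5 called in each knockdown pair were the arms of 1 precursor, so they are not separate observations. Among all miRNAs, 15.6% were called higher and 20.3% lower at day 0, and 21.9% higher and 23% lower at day 3. In P19 cells, 17.7% were called higher and 17.7% lower. By rank, miR-148a-3p was the 33rd of 602 at day 0, the 31st of 575 at day 3 and the 29th of 696 in P19 cells. Of 469 miRNAs tested in all 3 pairs, 21 (4.48%) were called higher and 6 (1.28%) lower in every pair, and both arms of miR-148a were among the 21. Of these 21, 14 map to the X chromosome and include 5 arms of miR-465 copies, of which the 3p arms had the same values. The position of 1 of the 21 was not found, and 3 of the 6 lower ones map to the X chromosome. The share of X-linked miRNAs among the 469 was not computed, so no enrichment is read from these counts. Ordered by the smallest of its 3 changes, miR-148a-3p came 6th, behind miR-881-3p, miR-871-3p, miR-878-5p, miR-470-5p and miR-743b-3p, which were named after their values were seen and all map to the X chromosome. With total-read scaling, 6 miRNAs were higher and 26 lower in every pair, and miR-148a-3p was among the 6 but miR-148a-5p was not.

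**Figure D2:**
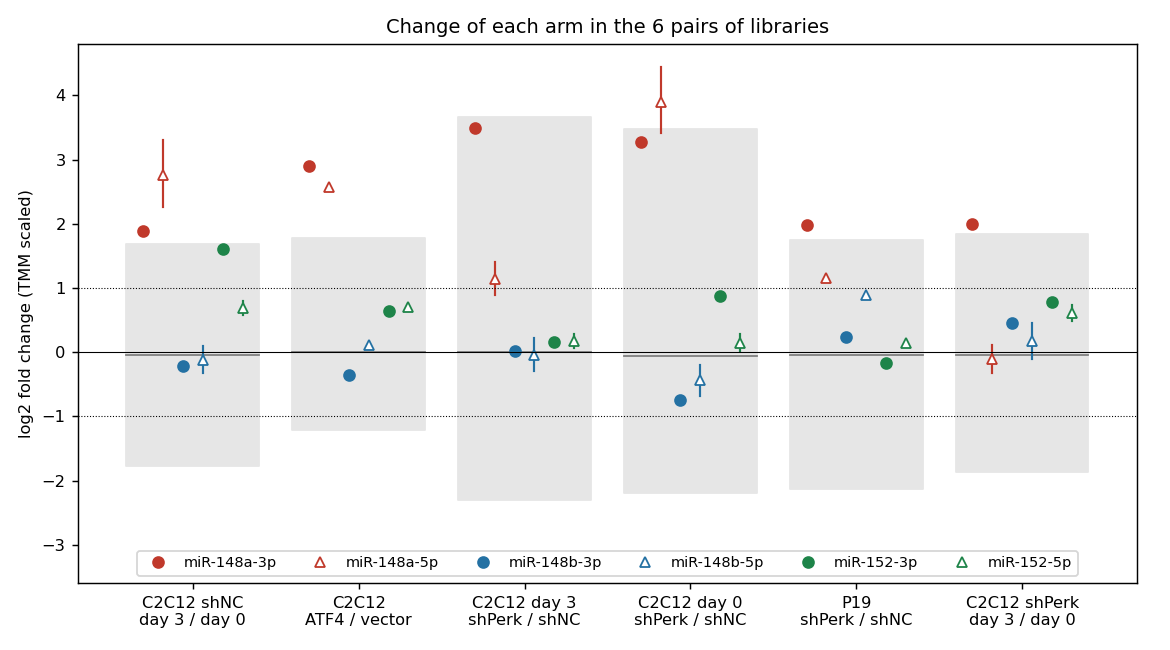
Log2 fold change (TMM scaled) of each arm in the 6 pairs of libraries, with 95% counting intervals where reads were deposited, dotted lines at the fold limit, grey bands from the 5th to the 95th percentile of all miRNAs tested and a grey line at their median. miR-148a-3p is above the limit in all 6 pairs, but it lies inside the grey band of both C2C12 knockdown pairs, whose upper ends are at 3.66 at day 3 and 3.48 at day 0.

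The balance of calls among all miRNAs depended on the scaling. With scaling to total reads, the median over all miRNAs shifted to -0.65 in the P19 pair, -0.32 in the day 3 knockdown pair, -0.19 in the day 0 knockdown pair, and -0.30 and -0.40 for day 3 against day 0 in shNC and shPerk cells. Calls then went from 123 higher and 123 lower to 46 and 247 in P19 cells, and from 126 and 132 to 93 and 166 in the day 3 knockdown pair. They went from 74 and 98 to 51 and 140 for differentiation in shNC cells, and from 97 and 97 to 58 and 161 in shPerk cells. Upper quartile factors moved the median of the ATF4 pair to -0.38, and calls there went from 88 higher and 54 lower to 53 and 124. miR-148a-3p was called higher in all 6 comparisons under each of these scalings, and its smallest log2 fold change was 1.38, in P19 cells.

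The 3p arms share a seed, so their summed reads and the part each took were also compared. These are shares of reads, with no correction for how well each sequence is ligated. In shNC cells at day 0, miR-148b-3p held 48.6% of the 3p reads of the family (95% interval 48 to 49.1), miR-152-3p 32.4% and miR-148a-3p 19.1%. In shNC cells at day 3, miR-152-3p held the largest part, 46.6%, and miR-148a-3p 33.4%. In shPerk cells miR-148a-3p held 67.7% at day 0 (95% interval 67.4 to 68.1) and 83.9% at day 3. The leading member of the C2C12 libraries was therefore a different one in each shNC library, and miR-148a-3p in both shPerk libraries.

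miR-148a-3p went from 13.7% of the family's 3p reads with the vector to 55.4% with ATF4. In P19 cells it held 80.2% with shNC and 93.6% with shPerk, and miR-152-3p held 5.38% and 1.42%. The summed level of the 3p arms was 3029 and 7572 RPM in shNC and shPerk cells at day 0, 5315 and 18950 at day 3, 4251 and 7462 RPM with vector and ATF4, and 24599 and 54834 RPM in shNC and shPerk P19 cells. The summed log2 fold change was 1.08 in differentiation of shNC cells, 0.88 with ATF4, and 1.46, 2.17 and 1.76 on knockdown at day 0, at day 3 and in P19 cells. The sum moved in the same direction as miR-148a-3p in each pair. miR-148a-3p is itself part of the sum, so this shared direction is no separate result. The sums in differentiation and with ATF4 also hold the values by which the family was chosen. With ATF4 the sum stayed within the limit.

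**Figure D3:**
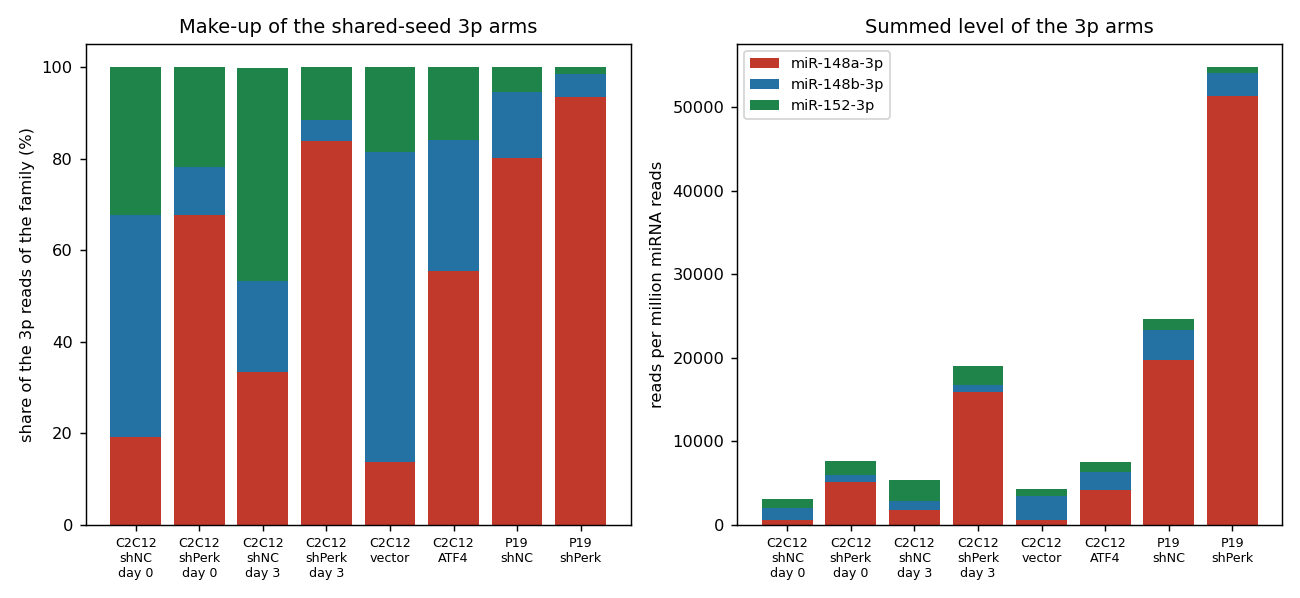
Left, share of each 3p arm in the summed 3p reads of the family (percent), and right, the summed level in RPM, for the 8 libraries. miR-148a-3p takes from 13.7% with the vector to 93.6% in shPerk P19 cells, and the highest sum, 54834 RPM, is in shPerk P19 cells.

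The balance of the arms was compared for the 3 precursors. In shNC and shPerk cells, miR-148a gave 177 (95% interval 128 to 251) and 115 (95% interval 104 to 127) 3p reads per 5p read at day 0, and 96 (95% interval 84.2 to 110) and 490 (95% interval 438 to 550) at day 3. In the other pairs the ratio was 53 with the vector, 66.3 with ATF4, 41.8 in shNC and 73.7 in shPerk P19 cells. The ratio of the shPerk library at day 3 was the highest of the 8, and its interval did not overlap those of the other count libraries. For miR-148b the ratio lay between 31.7 and 80.5, and for miR-152 between 8.28 and 18.6. At day 3 the ratios of shNC and shPerk cells were 36.8 and 38.4 for miR-148b and 18.6 and 18.3 for miR-152.

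The same reads were also compared as the change on knockdown at day 3 minus that at day 0. For miR-148a-3p the difference was 0.21 on the log2 scale (95% interval 0.17 to 0.25), and it was 0.01 with total-read scaling. For miR-148a-5p it was -2.76 (95% interval -3.31 to -2.22), and between -2.96 and -2.82 under the other scalings. It was 0.77 for miR-148b-3p, 0.40 for miR-148b-5p and -0.72 for miR-152-3p. The miR-148a-5p difference rests on 37 reads in shNC cells at day 0, and without replicates the spread between libraries is not known. The miR-148a differences also contain the shNC change from day 0 to day 3 by which the family was chosen, so they are a description.

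**Figure D4:**
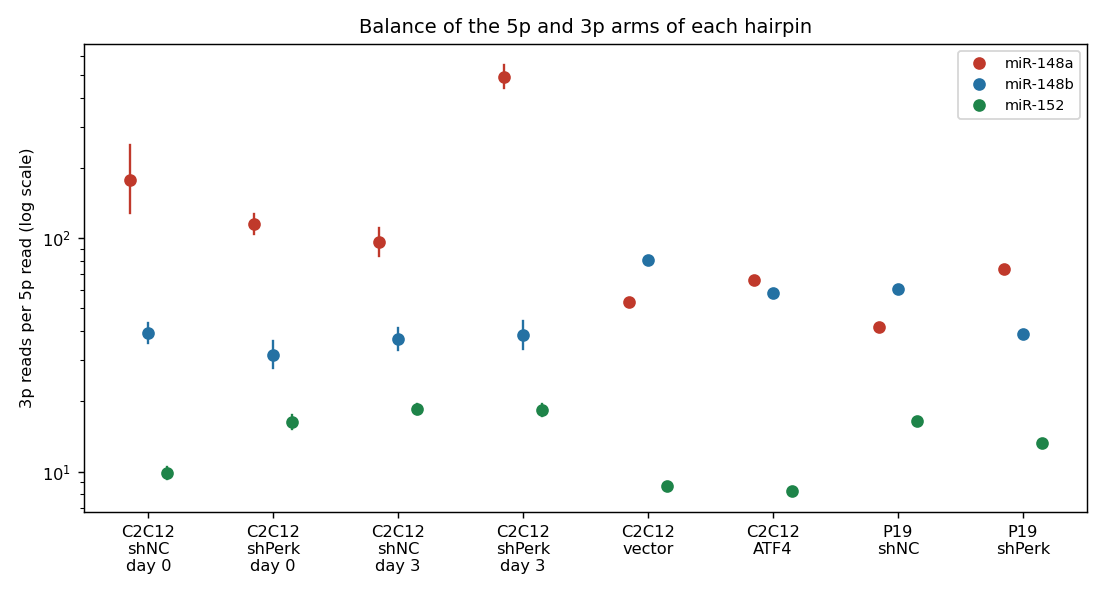
Number of 3p reads per 5p read (vertical log axis) of the miR-148a, miR-148b and miR-152 precursors in the 8 libraries, with 95% counting intervals for the count libraries. The miR-148a ratio stands at 490 in shPerk C2C12 cells at day 3 and between 41.8 and 177 in the other libraries.

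Myogenic miRNAs were set beside miR-148a, as a list of 14 miRNAs associated with myoblast differentiation. In differentiation of shNC cells, 8 of 14 were called higher and 0 lower (median log2 fold change 1.39 against -0.04 for all miRNAs). Among all miRNAs, 12.5% were called higher and 16.5% lower. miR-1a-3p, which acts on the histone deacetylase Hdac4, had 6.56, miR-206-3p 2.14, miR-133a-3p 3.22 and miR-499-5p 3.72. On knockdown in C2C12 cells more of the list was called lower than higher. At day 3, 2 were higher and 6 lower (median -0.66 against 0.01), and at day 0, 1 was higher and 5 lower (median -0.18 against -0.06). All miRNAs also had more lower than higher calls, with 21.9% higher and 23% lower at day 3. At day 0 these shares were 15.6% and 20.3%. At day 3 the log2 fold change was -2.07 for miR-1a-3p, -1.35 for miR-206-3p and -3.76 for miR-133a-3p, where that of miR-148a-3p was 3.49. miR-181a-5p and miR-26a-5p, with 1.87 and 1.46, were the members of the list called higher at day 3.

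The muscle miRNAs and miR-148a-3p were thus called in opposite directions in the knockdown pair at day 3, where the summed level of miR-1a, miR-133a, miR-133b and miR-206 was 88480 RPM in shNC and 24312 RPM in shPerk cells. At day 0 this sum was 19165 and 3839 RPM. Their part in the values of miR-148a was not tested. With ATF4, 3 of 14 were higher and 1 lower (median 0.54 against -0.00), and miR-1a-3p had 5.40. The 3 include miR-499-5p, which was listed at 0 with the vector and had 3.62 RPM with ATF4. Over all miRNAs the shares with ATF4 were 14.5% higher and 8.93% lower, and nothing is read from these counts. In P19 cells 13 of the list were tested, and 5 were higher and 0 lower (median 0.77 against -0.04). The 5 include miR-133b-3p, which had only 1.14 RPM with shNC and 1.79 RPM with shPerk. With total-read scaling, 2 of the list were past the limit in P19 cells. The shares over all miRNAs were 17.7% higher and 17.7% lower. In shPerk C2C12 cells, 6 of 14 were higher at day 3 than at day 0 and 0 lower (median 0.82 against -0.05). Among all miRNAs, 16.9% were higher and 16.9% lower in this pair. miR-1a-3p had 5.13 there and miR-206-3p 2.87, so both muscle miRNAs and miR-148a-3p were higher at day 3 in shPerk as in shNC cells.

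**Figure D5:**
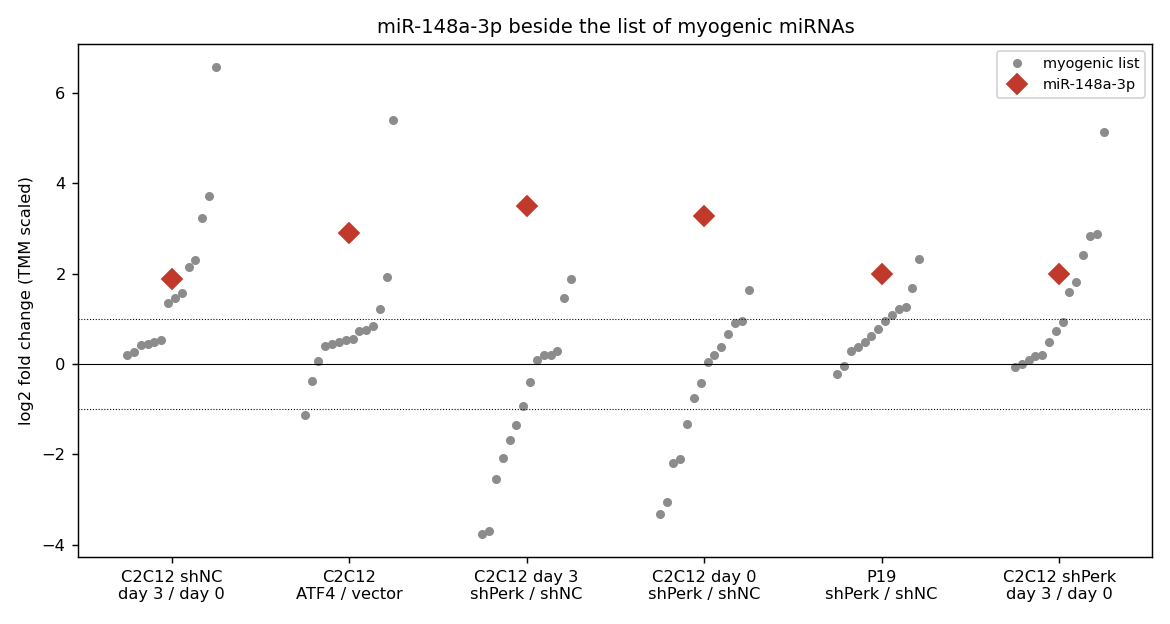
Log2 fold change (TMM scaled) of miR-148a-3p (diamond) and of each tested miRNA of the myogenic list (grey points, sorted by value) in the 6 pairs of libraries, with dotted lines at the fold limit and values listed at 0 RPM set to 1 RPM. miR-148a-3p lies above every point of the list in both C2C12 knockdown pairs, where the lowest points reach -3.76 at day 3 and -3.32 at day 0.

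Since the family is known for acting on Dnmt1, 7 other miRNAs described to act on DNA methyltransferases were compared. Among them was the miR-29 family, which acts on Dnmt3a and Dnmt3b. miR-29b-3p and miR-29c-3p are also on the myogenic list, so the lists overlap. In differentiation of shNC cells and with ATF4, 0 of 7 were called in either direction, with medians of 0.26 and 0.32. On knockdown, 1 was higher and 1 lower at day 3 (miR-185-5p with 1.31 and miR-342-3p with -1.32, median 0.22), and at day 0 0 were higher and 1 lower (miR-342-3p with -1.80, median 0.21). In P19 cells 4 of 7 were higher and 0 lower, and the median was 1.05 against -0.04 for all miRNAs. These were miR-143-3p with 2.67, miR-126a-3p with 1.26, miR-29b-3p with 1.22 and miR-29a-3p with 1.05. In shPerk C2C12 cells 1 of 7, miR-143-3p with 1.35, was higher at day 3, and the median was 0.08. Of all miRNAs in this pair, 16.9% were called higher and 16.9% lower. miR-148a-3p was called higher in both C2C12 knockdown pairs, and miR-148b-3p and miR-152-3p, which have the same seed, were not called. The medians of this list in those pairs were at most 0.22, and a median is no like measure to the call of 1 miRNA. In the P19 pair miR-148a-3p and 4 of 7 of the list were called higher, and with total reads 1 of 7 was called. Of all miRNAs, 12.5% were called higher and 16.5% lower in differentiation of shNC cells, and 14.5% and 8.93% with ATF4. On knockdown these shares were 21.9% and 23% at day 3, 15.6% and 20.3% at day 0, and 17.7% and 17.7% in P19 cells.

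The miRNAs with the pattern most like each 3p member were sought by the root mean square difference of the log2 fold changes over the 5 deposited pairs, among 261 miRNAs with at least 10 RPM in each pair. Some of these pairs share a library, and they include the differentiation and ATF4 contrasts by which miR-148a was chosen, so the distances that involve miR-148a-3p are a description and support nothing. Nearest to miR-148a-3p was miR-218-5p, at a difference of 0.55, with 2.32 in differentiation, 2.47 with ATF4 and 3.54, 3.86 and 1.08 on knockdown at day 3, at day 0 and in P19 cells. miR-146b-5p (1.05) and miR-195a-5p (1.12) came next, and miR-195a-5p had -0.09 in P19 cells. Nearest to miR-148b-3p were miR-350-3p (0.24), miR-331-3p (0.29) and miR-28c (0.31). Nearest to miR-152-3p were miR-27b-3p (0.14), miR-191-5p (0.38) and miR-23b-3p (0.39), and miR-27b-3p had 1.34 in differentiation, 0.49 with ATF4 and 0.20 on knockdown at day 3. Among the members themselves, the difference was 3.04 between miR-148a-3p and miR-148b-3p, 2.31 between miR-148a-3p and miR-152-3p and 1.19 between miR-148b-3p and miR-152-3p.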

How the data were processed

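Mature miRNAs were measured by small RNA sequencing in 8 samples, with 1 library per condition. The authors had linkers ligated to both ends of the RNA, amplified and gel-selected the product, and annotated reads with bowtie; the submitters' notes name the builds mm10 and GRCm38. Per mature miRNA, an unnormalised read count was deposited by the authors for the 4 C2C12 short hairpin libraries, and the shNC columns that occur in more than 1 table were identical for all 1978 miRNAs. For the ATF4 and P19 pairs the authors deposited RPM values, with those under 1 RPM listed at 0. The log2 fold change, p-value and q-value columns that the authors deposited were not used. The aligner version, the miRNA annotation and the rule for multiply matching reads are not given in the sources used here.

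In the count tables, a prior count of 0.125 reads was used, and in the RPM tables values at 0 were set to 1 RPM. Of the RPM values up to 4, between 86.8% and 92.3% were whole multiples of the step within 0.006 RPM, and no count test was run on them. TMM factors were computed with edgeR for each pair. With 1 library per condition no test was run, and a miRNA was called past a log2 fold change of 1. The fold limit and the counting intervals were checked on simulated read counts with a known scaling. That check did not cover TMM scaling, RPM values or the spread between replicates. The alternatives were total-read, median of ratios (DESeq2) and upper quartile scaling, no filter, a filter of 10 CPM or RPM, a larger prior (2 reads, or 1 RPM added), fold limits of 0.5 and 1.5, and TMM factors over 8 libraries for the levels. The check of all 3 knockdown pairs and of the day 3 minus day 0 difference under other scalings was added after seeing the data. The members and lists were chosen with earlier results of these data known. By rule, the miRNAs named are the members, miR-152-5p, the 3 nearest to each 3p member, and the list and marker members. The X-chromosome miRNAs called higher in all 3 knockdown pairs were named after their values were seen. Sequences matched RefSeq by name for all 6 arms, and genes around the precursors are from GENCODE M21. The versions were edgeR 4.0.16, DESeq2 1.42.0 and R 4.3.3, then matplotlib 3.10.9, scipy 1.17.1, pandas 2.3.3, numpy 2.4.6 and Python 3.11.15.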

Additional observations from a re-analysis of the deposited data

Results flagged for a closer look

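The change of miR-148a-5p on PERK knockdown in C2C12 cells was smaller at day 3 than at day 0 by 2.76 on the log2 scale (day 3 minus day 0, -2.76, 95% counting interval -3.31 to -2.22). The interval covers counting error only, and the spread between libraries is not known. The difference contains the shNC change from day 0 to day 3 by which the family was chosen, so it is a description.

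On knockdown at day 0 in C2C12 cells and in P19 cells, the log2 fold changes of miR-148b-5p and of miR-152-3p had opposite signs, but all of these values were within the fold limit. The difference, C2C12 minus P19, was -1.33 for miR-148b-5p (-0.44 against 0.89) and 1.04 for miR-152-3p (0.88 against -0.16), and it was not tested, since each side is 1 pair of libraries. Under the alternatives, the P19 value lay between 0.29 and 0.97 for miR-148b-5p and between -0.76 and -0.08 for miR-152-3p.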

How the results depend on the processing

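No paired analysis was possible because each condition had 1 library. miR-148a-3p was called higher in all 6 comparisons under every scaling, filter and prior. The number of members called fell from 2 to 1 in the day 3 knockdown pair and in the P19 pair with total-read scaling and with a fold limit of 1.5, and with a limit of 0.5 it was 4 in the day 0 knockdown pair and 2 for day 3 against day 0 in shPerk cells. The myogenic count was 9 and 2 with ATF4 at limits of 0.5 and 1.5, 10 in the day 0 knockdown pair at 0.5, and 2, 8 and 2 in P19 cells with total reads and limits of 0.5 and 1.5. The methyltransferase count in differentiation of shNC cells was 1 with total reads, without a filter and with a filter of 10, and 2 at a limit of 0.5. It was 1 with upper quartile factors or a filter of 10 and 2 at 0.5 with ATF4, 1 with total reads and 0 at 1.5 in the day 3 knockdown pair, and 4 at 0.5 in the day 0 pair. It was 1 with total reads and 1 at 1.5 in P19 cells, and 0, 2 and 0 with total reads and limits of 0.5 and 1.5 for day 3 against day 0 in shPerk cells. With total reads, 6 instead of 21 miRNAs were higher and 26 instead of 6 lower in all 3 knockdown pairs. The other 117 of these counts stayed within 1.5 times the value reported, and no member called past the fold limit changed sign. Values within the limit did: with total reads, miR-152-3p (-0.17) and miR-148b-3p (-0.31) in the day 3 knockdown pair, miR-148b-3p in P19 cells (-0.37) and miR-148b-5p for day 3 against day 0 in shPerk cells (-0.18), with upper quartile factors miR-148b-5p with ATF4 (-0.26) and miR-148b-3p in the day 3 pair (-0.09), and miR-148b-3p there also without a filter (-0.05) and with a filter of 10 (-0.07). The cause was not tested, beyond the shift of the median of all miRNAs that total reads bring. The depth limits mainly miR-148a-5p, with 37 reads in its lowest count library.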
